A study of Homo sapiens with 4 samples.

Results

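The genes described are 10 members of the Notch pathway: the ligand genes JAG1 and DLL3, the receptor genes NOTCH1, NOTCH2 and NOTCH3, the Mastermind co-activator genes MAML1, MAML2 and MAML3, and the target genes HES1 and HEY1. They were picked by symbol, with earlier results of the same comparison in view, to set long co-activator genes beside short target genes. All 10 were found among the 57820 gene rows of the count files, and all 10 passed the filter on low counts. Because the choice was made with these values known, the changes of the 10 genes are given as a description, with no p-value, and which of them fall under the threshold used for all genes is stated for completeness only.

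RNA was sequenced from SY5Y cells, a human neuroblastoma cell line with wild type MYCN, 12 h after treatment with SGSS05-NS or with its solvent DMSO. SGSS05-NS is the name in the labels, which give a dose of 3 μM, and the series title writes SGSS05-NS3 and describes an inhibitor of SETD8, a methyltransferase of histone H4 and of p53. Other passages of the study name this dose for SY5Y cells too, but its methods name a lower one. Each condition had 2 independent biological replicates of this 1 cell line, hence 4 libraries.

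Notch receptors sit in the cell membrane and are activated by ligands of the Jagged and Delta families on a neighbouring cell. Proteases then cut the receptor, and the freed inner part enters the nucleus, where it binds the DNA-binding protein RBPJ and recruits a Mastermind protein to switch on target genes such as HES1 and HEY1. HES and HEY proteins are repressors that hold back neuronal differentiation in the developing nervous system. In neuroblastoma the pathway is known for its link to a mesenchymal cell state, while the sympathoadrenal state is marked by transcription factors such as HAND2 and GATA3.

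Between 21463105 and 25350204 fragments fell on genes in each library. Of 8 sympathoadrenal markers (PHOX2A, GATA3, HAND2, ISL1, TH, DBH, CHGA and CHGB), 7 were at or above 1 CPM (counts scaled to library size with TMM factors) in every library, and TH had at most 2 fragments. The summed level of these markers was 2516 and 2673 CPM with DMSO and 1682 and 1497 CPM with SGSS05-NS. CHGB went the other way, at 112 and 107 CPM with DMSO and 122 and 114 CPM with SGSS05-NS. The summed level of the leukocyte markers PTPRC, CD3E and CD14 was between 0.319 and 1.23 CPM, and CD14 accounted for most of it, with 7 and 9 fragments with DMSO and 25 and 29 with SGSS05-NS. Markers of endothelium (CDH5 and KDR) summed to between 0.128 and 0.360 CPM, those of epithelium (EPCAM, CDH1 and KRT5) to between 1.91 and 3.61 CPM, and those of fibroblasts (COL1A1, COL1A2, DCN and LUM) to between 2.84 and 4.32 CPM. CD3E, KRT5 and DCN were at 0 in each library, while EPCAM and LUM were above 1 CPM in each. In such bulk RNA, fewer cells that express a gene and less of its RNA per cell cannot be told apart, and the part of the lower marker levels in the results was not tested.

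SGSS05-NS was set against DMSO with the quasi-likelihood test of edgeR, and a gene was called when its p-value, adjusted over the 16468 genes tested by the Benjamini-Hochberg method, was under 0.001, the threshold of the study. By this rule 3 of the 10 genes were called: NOTCH1 and HES1 were higher and MAML3 was lower with SGSS05-NS. Of all genes tested, 14.5% were called, 6.37% as higher and 8.14% as lower, and nothing is read from the count of the 10 genes since the comparison was used to choose them. Both SGSS05-NS libraries were above both DMSO libraries for 5 of the 10 genes and below them for 4, and the libraries overlapped for NOTCH3. The same orders were seen in 37.8% and 36.9% of all genes tested.

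The Mastermind genes encode scaffold proteins that bind the complex of RBPJ and the cut receptor and bring in histone acetyltransferases. MAML3 (ENSG00000196782.8, chromosome 4 from 140637907 to 141075338, minus strand, all positions on GRCh37) is the longest. The gene spans 437 kb and its main transcript has 5 exons, with a longest intron of 262 kb, so that exons make up 1.56% of the gene. MAML2 (ENSG00000184384.9, chromosome 11 from 95709762 to 96076359, minus strand) has the same layout, with 367 kb, 5 exons and a longest intron of 248 kb. MAML1 (ENSG00000161021.7, chromosome 5 from 179159823 to 179204284, plus strand) also has 5 exons but spans 44.5 kb, and its longest intron is 31.9 kb. The spliced main transcripts of MAML1, MAML2 and MAML3 are close in length, with 5748, 7121 and 6844 bases.

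The level of MAML3 was 118 and 144 CPM in the DMSO libraries and 30.2 and 30.7 CPM in the SGSS05-NS libraries. The treated libraries lay far below the controls and close to each other. The log2 fold change was -2.10 (standard error 0.11), so that the level with DMSO was 4.29 times that with SGSS05-NS. MAML1 was at 54.4 and 51.7 CPM with DMSO and at 70.9 and 64.1 CPM with SGSS05-NS. Both treated libraries were above both controls, with a log2 fold change of 0.35 (standard error 0.10). The rarest of the family, MAML2, had 33 and 25 fragments with DMSO and 14 and 6 with SGSS05-NS, or 1.32 and 1.07 CPM against 0.631 and 0.255 CPM. The treated libraries were again below the controls. Its log2 fold change of -1.44 (standard error 0.41) rests on few fragments and became -2.21 without SGSS05-NS replicate 1. Counting error alone put the ratio of scaled counts, SGSS05-NS to DMSO, at 0.365 with a 95% range (exact binomial) of 0.208 to 0.617. This range and the intervals given for shares and ratios hold no other error.

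The make-up of the Mastermind family therefore differed between the conditions. MAML3 held 67.9% and 73.1% of the fragments on the 3 genes in the DMSO libraries (95% Wilson intervals from 66.5% to 69.3% and from 71.8% to 74.4%). In the SGSS05-NS libraries it held 29.7% and 32.3% (from 27.9% to 31.6% and from 30.4% to 34.3%). MAML1 took 31.3% and 26.4% with DMSO and 69.7% and 67.4% with SGSS05-NS, so the leading gene of the family was MAML3 in both control libraries and MAML1 in both treated libraries. MAML2 stayed under 1% in each of the 4 libraries. All fragments on the 3 genes together came to 4354 and 4587 in the DMSO libraries and to 2259 and 2235 in the SGSS05-NS libraries.

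**Figure D1:**
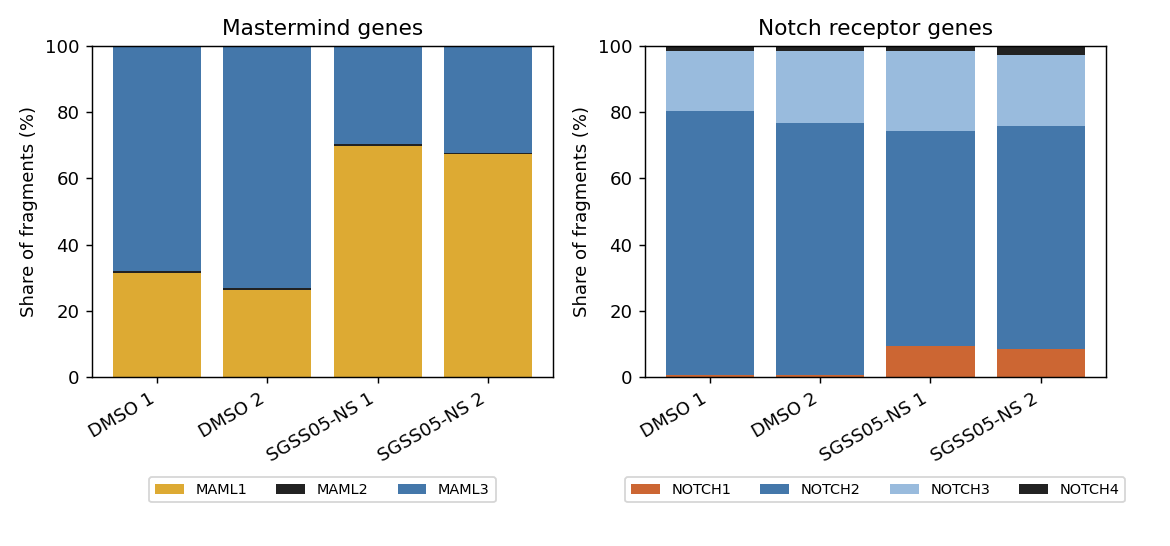
Stacked bars give the share of fragments (%, linear axis) that each gene took within the Mastermind family (left) and within the Notch receptor family (right) in each of the 4 libraries. MAML3 takes 67.9% and 73.1% of the Mastermind fragments with DMSO and 29.7% and 32.3% with SGSS05-NS, and NOTCH1 goes from under 1% to 9.31% and 8.53% of the receptor fragments.

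The receptor genes encode large membrane proteins of similar build. NOTCH1 (ENSG00000148400.9, chromosome 9 from 139388885 to 139440500, minus strand, 51.6 kb) was almost silent in the control cells, with 19 and 14 fragments or 0.757 and 0.599 CPM. With SGSS05-NS it had 192 and 139 fragments or 8.65 and 5.91 CPM. The treated libraries were far above the controls and also differed from each other. The log2 fold change was 3.41 (standard error 0.29), a 10.6-fold difference and the largest among the 10 genes in either direction. NOTCH2 (ENSG00000134250.13, chromosome 1 from 120454176 to 120643366, minus strand, 189 kb) was the most abundant receptor gene by fragments, at 83.8 and 76.1 CPM with DMSO and 60.5 and 46.5 CPM with SGSS05-NS. Both treated libraries were below the controls, with a log2 fold change of -0.58 (standard error 0.12). Near-identical partial copies of NOTCH2 lie elsewhere in the genome, and fragments that map to several places were not counted, so its level is a lower estimate. NOTCH3 (ENSG00000074181.4, chromosome 19 from 15269849 to 15311806, minus strand, 42.0 kb) had 19.1 and 21.7 CPM with DMSO and 22.3 and 14.9 CPM with SGSS05-NS. These libraries overlapped, and the log2 fold change of -0.14 (standard error 0.17) ranged from -0.46 to 0.13 with single libraries left out. NOTCH4, not one of the 10 genes, had between 33 and 45 fragments per library.

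Within the receptor family, NOTCH2 held 79.7% and 76.1% of the fragments with DMSO and 65.1% and 67.2% with SGSS05-NS. The share of NOTCH1 was 0.720% and 0.600% with DMSO (95% Wilson intervals from 0.461% to 1.12% and from 0.357% to 1.00%) and 9.31% and 8.53% with SGSS05-NS (from 8.13% to 10.6% and from 7.27% to 9.99%). NOTCH2 therefore stayed the leading receptor in every library, while NOTCH1 moved from the last place to the third, above NOTCH4.

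**Figure D2:**
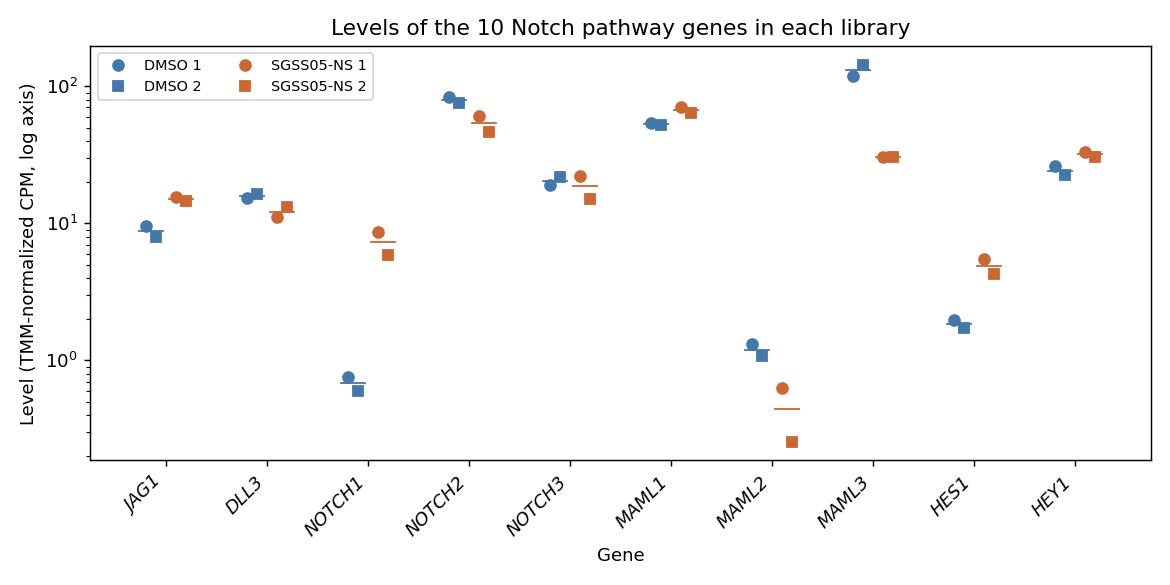
Points are the levels (TMM-normalized CPM, log axis) of the 10 genes in the 2 DMSO and 2 SGSS05-NS libraries, and short lines are the means of a condition. NOTCH1 and HES1 lie higher and MAML3 lies lower in both treated libraries, and the libraries overlap only for NOTCH3.

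Both ligand genes were expressed at modest levels. JAG1 (ENSG00000101384.7, chromosome 20 from 10618332 to 10654647, minus strand, 36.3 kb), which encodes a Jagged ligand, was at 9.57 and 8.0 CPM with DMSO and at 15.6 and 14.6 CPM with SGSS05-NS. Both treated libraries were above both controls. The log2 fold change was 0.78 (standard error 0.14). DLL3 (ENSG00000090932.6, chromosome 19 from 39989535 to 39999121, plus strand, 9.59 kb), a Delta-like ligand that is known to act inside the cell that makes it and to hold Notch signalling back, was at 15.4 and 16.4 CPM with DMSO and at 11.1 and 13.2 CPM with SGSS05-NS. Its log2 fold change was -0.38 (standard error 0.14), with both treated libraries below the controls.

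The target genes are the shortest of the 10. HES1 (ENSG00000114315.3, chromosome 3 from 193853937 to 193856521, plus strand) spans 2.59 kb with 4 exons, and 79.7% of the gene is exonic. It had 49 and 40 fragments with DMSO and 122 and 101 with SGSS05-NS, or 1.95 and 1.71 CPM against 5.5 and 4.29 CPM. Both treated libraries were above both controls. The log2 fold change was 1.41 (standard error 0.23), a 2.66-fold difference, and the call was lost without SGSS05-NS replicate 1.

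HES1 is shown in sequence because it is the called target gene among the 10 and because its promoter is a textbook site of RBPJ. The 250 bases before its start (RefSeq sequence, found once on GRCh37 at chr3:193853687-193853936, plus strand) hold the RBPJ core letters TGGGAA in 2 places on the gene's strand, which begin 84 and 70 bases before the start, 14 bases apart. Only these exact letters were searched for, so an RBPJ site with other letters would not be marked, and the 2 places are not shown to be a known pair of sites. The letters are in capitals:
HES1: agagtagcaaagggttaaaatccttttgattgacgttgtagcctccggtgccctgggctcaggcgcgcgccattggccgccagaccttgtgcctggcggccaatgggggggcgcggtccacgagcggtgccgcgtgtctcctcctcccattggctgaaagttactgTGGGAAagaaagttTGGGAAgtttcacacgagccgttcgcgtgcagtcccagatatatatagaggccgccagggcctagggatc

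Promoter sequences were matched by symbol for 8 of the 10 genes and for 54 of the other pathway genes. Searched on both strands of the 250 bases before the start, TGGGAA was found in 20.8% of 35116 promoters and in 2 or more places in 2.90% of them. Among the 8 genes it was found in HES1 only, and among the 10 genes listed as target genes with a promoter sequence in 6. These 6 are HES1, HES3, HES4, HES5, HEY2 and HEYL, and HES3, HES5, HEY2 and HEYL had too few counts for the test. HES2, HES6, HES7 and NRARP did not hold the letters. The letters CACGTG, bound by HES proteins, were in none of the 8 promoters and in 6.34% of all. The letters CACGCG, also bound by the HES and HEY family, were in 1 of the 8 promoters, that of HES1, and in 9.72% of all. These are matches of letters and not measured binding.

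The stretches of 30 bases around TGGGAA on the gene's strand are shown for HES1 and for 3 other target genes, HES4, HES5 and HEYL, to compare the bases around the core (GRCh37, chromosome 3 for HES1 and chromosome 1 for the others). HES1, HES4 and HES5 share a G before the core at the site shown, and HEYL and the second site of HES1, 70 bases before the start, do not:
HES1: tgaaagttactgTGGGAAagaaagtttggg
HES4: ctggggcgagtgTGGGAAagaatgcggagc
HES5: ggccgcggagtgTGGGAAcggccgcggcgc
HEYL: aggaaagggcccTGGGAAagggcggtggcg

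The 250 bases before the start of MAML3, the gene of the 10 with the largest fall, are shown beside them (RefSeq sequence, found once on GRCh37 at chr4:141075339-141075588, minus strand). They hold none of the 3 letter patterns, so nothing is in capitals, and 72.4% of the bases are G or C against 59.2% for HES1:
MAML3: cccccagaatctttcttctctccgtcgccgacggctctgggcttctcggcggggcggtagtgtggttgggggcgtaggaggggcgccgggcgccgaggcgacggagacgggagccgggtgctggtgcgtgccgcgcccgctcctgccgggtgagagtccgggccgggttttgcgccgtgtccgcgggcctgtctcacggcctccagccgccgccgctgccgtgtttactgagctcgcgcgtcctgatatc

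HEY1 (ENSG00000164683.12, chromosome 8 from 80674606 to 80680092, minus strand, 5.49 kb) was far more abundant than HES1 in fragments, at 26.1 and 22.4 CPM with DMSO and 33.1 and 30.5 CPM with SGSS05-NS. Its treated libraries were also above the controls, with a log2 fold change of 0.39 (standard error 0.12).

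Levels of different genes were compared as CPM per kb of exonic sequence. In the DMSO libraries MAML3 was highest, with 19.1 ± 2.65 CPM per kb (SD, n = 2), followed by MAML1 with 8.89 ± 0.310, DLL3 with 6.07 ± 0.273, NOTCH2 with 4.77 ± 0.324 and HEY1 with 4.42 ± 0.479 CPM per kb. NOTCH3 had 2.17 ± 0.202, JAG1 0.945 ± 0.119, HES1 0.890 ± 0.0827, MAML2 0.167 ± 0.0243 and NOTCH1 0.0541 ± 0.00892 CPM per kb (SD, n = 2). The libraries of NOTCH2 and HEY1 overlapped, as did those of JAG1 and HES1, so their order is not settled. With SGSS05-NS the highest level per kb of exonic sequence was that of MAML1, with 11.3 ± 0.811 CPM per kb. HEY1 followed with 5.80 ± 0.328, DLL3 with 4.65 ± 0.565 and MAML3 with 4.45 ± 0.0479 CPM per kb. DLL3 and MAML3 overlapped. NOTCH2 had 3.20 ± 0.591, HES1 2.38 ± 0.413, NOTCH3 1.98 ± 0.551 and JAG1 1.62 ± 0.0766 CPM per kb, and the libraries of NOTCH3 overlapped with those of HES1 and of JAG1. NOTCH1 (0.581 ± 0.155 CPM per kb) and MAML2 (0.0622 ± 0.0373 CPM per kb) were lowest in the treated cells too, in the opposite order. For HEY1 the whole gene is annotated as exonic in some transcript, and per kb of its main spliced transcript its level with DMSO was 11.0 CPM per kb, second to MAML3 with 19.1 CPM per kb. By the same measure HEY1 was at 14.5 CPM per kb with SGSS05-NS, above MAML1 with 11.7 CPM per kb. Which gene was highest in the treated cells therefore depends on the length used.

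Gene length from start to end separated the long Mastermind genes from the short target genes. Over all genes tested, the median log2 fold change was 0.10 for 4776 genes under 10 kb, the class of HES1, HEY1 and DLL3, and 0.14 for 6020 genes of 10 to 50 kb, the class of MAML1, JAG1 and NOTCH3. It was -0.09 for 3550 genes of 50 to 150 kb, -0.48 for 1075 genes of 150 to 300 kb and -1.03 for 621 genes of 300 kb and more, the class of MAML2 and MAML3. In this longest class 53.8% of the genes were called lower and 0.805% higher, against 5.86% lower and 6.60% higher under 10 kb. The shares called lower and higher were 1.91% and 9.47% at 10 to 50 kb, 6.96% and 3.69% at 50 to 150 kb, and 30.5% and 1.02% at 150 to 300 kb. MAML3 and MAML2 were below the median of their class, and 33 and 164 of the 621 genes had lower log2 fold changes than MAML3 and MAML2. HES1 was above the median of its class, where 365 of 4776 genes had higher log2 fold changes. NOTCH1 belongs to the class of 50 to 150 kb, where 13 of 3550 genes had higher log2 fold changes. NOTCH2, at 189 kb, was near the median of its class with a log2 fold change of -0.58. The classes leave out 426 genes tested whose length was not matched. Genes are not independent replicates, and these values are a description. Fragments assigned to no gene were 12.4% and 12.3% of the total with DMSO and 16.1% and 15.3% with SGSS05-NS, and the part of this shift in the counts of long genes was not tested.

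**Figure D3:**
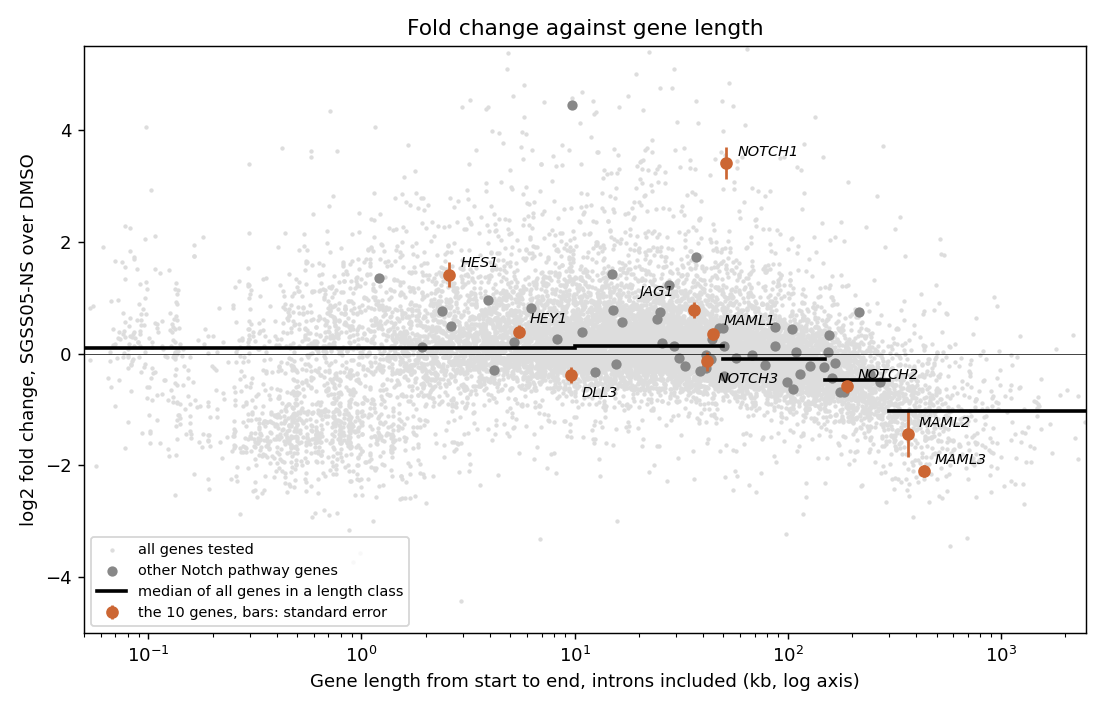
The log2 fold change with SGSS05-NS (linear axis) is plotted against gene length (kb, log axis) for all genes tested (light grey), the other Notch pathway genes (dark grey) and the 10 genes (with their standard errors), and black lines are the medians of all genes in 5 length classes. MAML2 and MAML3 lie in the longest class, whose median is -1.03, while HES1 and NOTCH1 lie above the medians of shorter classes, and a few genes beyond the axes are not drawn.

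The rest of the pathway was read from a list of 63 genes written by role from general knowledge, of which 55 had enough counts for the test. Outside the target genes, MFNG, with at most 8 fragments in a library, and MAMLD1, with 0, were the untested ones. Of these, 9 were called higher (16.4%) and 2 lower (3.64%) with SGSS05-NS, beside 6.37% and 8.14% of all genes tested, and 44 were not called. DLL4 is among the 9 but passed the filter only through its treated libraries, and with a minimum of 10 counts in every library there were 8 higher and 2 lower calls. Their median log2 fold change was 0.12, beside 0.01 for all genes tested. All 8 of the called genes under 50 kb were higher, among 31 such genes tested, and none of the 31 was lower. Of the 28 such genes with at least 10 counts in every library, 7 were called higher. Of all genes tested under 10 kb, 6.60% were called higher and 5.86% lower. At 10 to 50 kb these shares were 9.47% and 1.91%, and at 150 to 300 kb 1.02% and 30.5%. Among the 10 other pathway genes tested of 150 kb and more, 1 was called higher and 1 lower, and the median log2 fold change was -0.40. The number of lower calls was unstable and ranged from 1 without SGSS05-NS replicate 2 to 8 without SGSS05-NS replicate 1, and it was 5 with either of the DMSO replicates left out.

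Among the 5 other ligand genes, DLL4 and JAG2 were called higher, beside 6.37% of all genes tested. DLL4, known from sprouting blood vessels, had 1 and 2 fragments with DMSO and 32 and 35 with SGSS05-NS. Scaled to library size, that is 23.7 times as many, with a 95% range from counting (exact binomial) of 7.76 to 118, and no p is given, since the gene entered the test only through its treated libraries. JAG2 rose from 2.04 ± 0.101 to 4.76 ± 0.659 CPM (SD, n = 2), a log2 change of 1.22 ± 0.22 (SE) with an edgeR adjusted p of 0.00085, and its call was lost with DESeq2, with scaling by library size only, with counts without regard to strand and without SGSS05-NS replicate 1. DLK2 had a log2 fold change of 0.81 and was not called, and neither were DLL1 and DLK1.

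The enzymes that prepare the receptor on its way to the membrane include 2 genes called higher among 5 tested, beside 6.37% of all genes tested. FURIN, the protease that makes the first cut of the receptor in the Golgi, rose from 13.9 ± 1.11 to 37.5 ± 3.5 CPM (SD, n = 2), a log2 change of 1.43 ± 0.12 (SE) with an edgeR adjusted p of 4.1e-06. RFNG, a Fringe glycosyltransferase, rose from 22.1 ± 0.528 to 42.9 ± 9.78 CPM, a log2 change of 0.96 ± 0.14 (SE) with an edgeR adjusted p of 0.00022. LFNG, another Fringe gene, had a log2 fold change of 0.56 and was not called. None of the 8 genes of the proteases that cut the receptor after ligand binding was called, beside 14.5% of all genes tested. ADAM10 had the lowest log2 fold change of the 8, -0.44. NCSTN and APH1A, subunits of gamma-secretase, had log2 fold changes of -0.19 and -0.29.

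Of 13 genes for endocytosis and turnover, 3 were called higher (23.1%) and none lower, beside 6.37% and 8.14% of all genes tested. FBXW7, which encodes the part of a ubiquitin ligase that recognizes the cut receptor for degradation, rose from 59.9 ± 2.5 to 101 ± 4.94 CPM (SD, n = 2), a log2 change of 0.75 ± 0.09 (SE) with an edgeR adjusted p of 6.7e-05. It is 216 kb long, and of the genes of 150 to 300 kb 1.02% were called higher. MIB2, a ubiquitin ligase of the ligands, had a log2 change of 0.79 ± 0.12 (SE) with an edgeR adjusted p of 0.00032. NUMBL, a relative of the Notch inhibitor NUMB, had one of 0.75 ± 0.13 (SE) with an edgeR adjusted p of 0.00057, and its call was lost with scaling by library size only and without SGSS05-NS replicate 1. NUMB itself, 184 kb long, had a log2 fold change of -0.69 and was not called (edgeR adjusted p = 0.0017).

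None of the 6 other nuclear co-activator genes tested was called, beside 14.5% of all genes tested. RBPJ, the DNA-binding protein of the pathway, had 103 ± 13.3 CPM with DMSO and 72.9 ± 7.76 CPM with SGSS05-NS (SD, n = 2), a log2 fold change of -0.50 (adjusted p = 0.0037 from edgeR's test). The acetyltransferase genes EP300 and CREBBP, whose proteins Mastermind recruits, had log2 fold changes of 0.48 and 0.34 (adjusted p = 0.011 and 0.019 from edgeR's test). RBPJ was called lower under 5 alternatives: the likelihood ratio test, no filter on low counts, the replicate block (edgeR adjusted p = 0.00094), and with the first DMSO or the first SGSS05-NS replicate left out. EP300 had a log2 fold change of 0.25 without DMSO replicate 1 and of 0.71, which was called, without DMSO replicate 2, and it was also called without a filter on low counts. For CREBBP the log2 fold change was 0.21 without DMSO replicate 1. Of 14 co-repressor genes, CTBP2 and TLE1 were called lower (14.3%), beside 8.14% of all genes tested. CTBP2 is 177 kb long, and of all genes of 150 to 300 kb 30.5% were called lower. TLE1 is 106 kb long, and of those of 50 to 150 kb 6.96% were called lower. CTBP2 fell from 114 ± 0.369 to 70.3 ± 2.08 CPM (SD, n = 2), a log2 change of -0.69 ± 0.09 (SE) with an edgeR adjusted p of 9.1e-05. TLE1 fell from 88.2 ± 8.24 to 57.0 ± 5.28 CPM, a log2 change of -0.63 ± 0.11 (SE) with an edgeR adjusted p of 0.00052, and its call was lost with scaling by library size only and without SGSS05-NS replicate 2. NCOR1, 189 kb long and so in the same length class as RBPJ and CTBP2, had a log2 fold change of -0.60. NCOR1 was not called (edgeR adjusted p = 0.0012). It was called lower under 7 alternatives: DESeq2, the likelihood ratio test, no filter on low counts, the replicate block (edgeR adjusted p = 0.00017), and with each single library but SGSS05-NS replicate 2 left out.

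Of the 9 other genes listed as target genes, 3 had enough counts for the test. Of these 3, HES4 and HES6 were called higher, beside 6.37% of all genes tested. The 9 genes are the rest of the HES and HEY families and NRARP. Whether Notch switches on each of them in these cells was not tested. HES4 had 38 and 30 fragments with DMSO and 81 and 82 with SGSS05-NS, a log2 change of 1.34 ± 0.24 (SE) with an edgeR adjusted p of 0.00076. Its call was lost with DESeq2, with scaling by library size only, and without DMSO replicate 2 or either SGSS05-NS replicate. HES6, a family member that is known to favour neuronal differentiation and to act against HES1, rose from 17.1 ± 0.573 to 28.9 ± 2.68 CPM (SD, n = 2), a log2 change of 0.75 ± 0.12 (SE) with an edgeR adjusted p of 0.00034. NRARP, a feedback inhibitor of the pathway, had a log2 fold change of 0.49 (adjusted p = 0.011 from edgeR's test) and was not called. The other 6 were nearly silent: HES5 had 0 and 0 fragments with DMSO against 3 and 1 with SGSS05-NS, HEYL had 1 and 1 against 4 and 4, and HES7 had 2 and 0 against 7 and 5. HES2, HES3 and HEY2 had at most 3 fragments in a library.

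**Figure D4:**
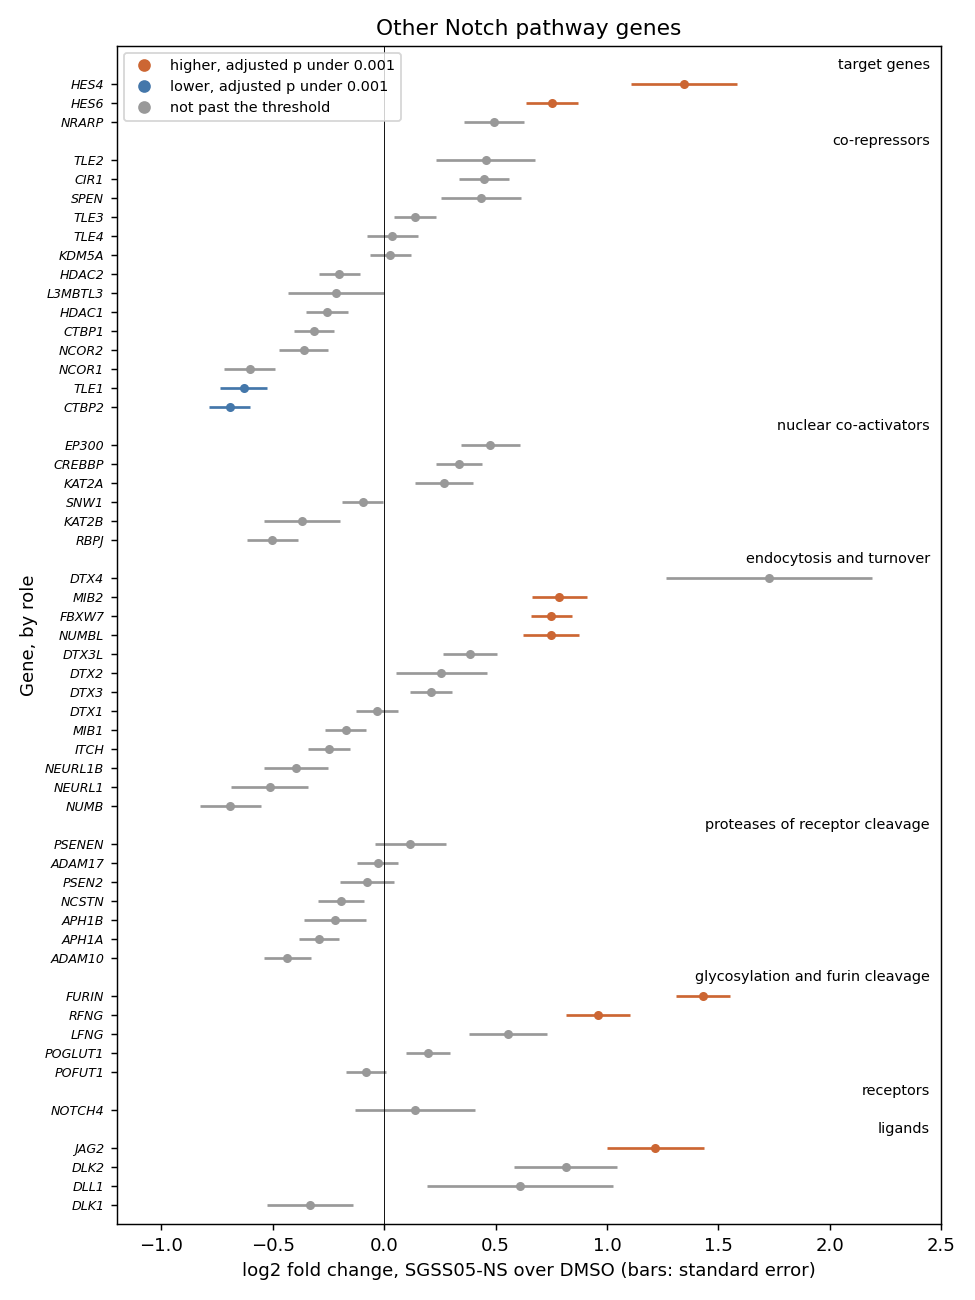
Points are the log2 fold changes (linear axis, bars are standard errors) of most other Notch pathway genes tested, grouped by role, without DLL4, which had 3 fragments in the DMSO libraries together. Orange points were called higher (JAG2, RFNG, FURIN, MIB2, NUMBL, FBXW7, HES4 and HES6), blue points were called lower (CTBP2 and TLE1), and grey points did not pass the threshold.

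The genes whose pattern over the 4 libraries was most like that of MAML3, by the smallest root mean square difference of mean-centred log2 CPM among 11412 genes with a mean log2 CPM of at least 2, were EEF1A1P38, BMPR1B and NLGN4X, with differences of 0.062, 0.069 and 0.082. BMPR1B and NLGN4X are 400 kb and 388 kb long. EEF1A1P38 is a processed copy of another gene, 1.70 kb long, and its counts are uncertain. For HES1 they were HSPA4L, BCL9L and DUSP4, with differences of 0.031, 0.045 and 0.050, and lengths of 58.9 kb, 32.1 kb and 17.6 kb. With 4 libraries in 2 conditions, this likeness is mostly a like fold change.

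A second readout of the same loci, the fragments on the opposite strand, was low. MAML2 and NOTCH1 had 0 such fragments in every library, and MAML3 had 9 and 8 with DMSO against 15 and 11 with SGSS05-NS, although genes on the opposite strand (MGST2 and others) overlap it. JAG1 had 10 and 10 with DMSO against 6 and 3 with SGSS05-NS. These numbers are small beside the fragments on the strand of the genes.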

How the data were processed

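After trimming with Trimmomatic 0.30, the authors mapped read pairs with STAR 2.4.2a to hg19 (GRCh37, GENCODE version 19) and deposited unnormalized gene counts, one file per library. The labels name a TruSeq RNA kit and the methods a stranded total RNA kit, and the selection of RNA is not settled here. Each file holds 57820 gene rows and 4 summary rows, which were left out. The counts of the reverse strand were used, since the other strand held between 4.64% and 5.05% of the fragments on genes. Symbols, positions and lengths are from GENCODE release 44 on GRCh37 (55538 identifiers matched, and PECAM1 was not matched; a few pathway and marker genes are not reported here), and promoter sequences from RefSeq, located on GRCh37 by exact match.

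Genes were filtered with filterByExpr, scaled by TMM and compared with edgeR 4.0.16 (quasi-likelihood test, Benjamini-Hochberg adjustment) in R 4.3.3. The study names edgeR's likelihood ratio test, which was an alternative, as were DESeq2 1.42.0, other scalings, filters, strand and threshold, the replicate number as a block, and each library left out. The standard error is the log2 fold change divided by the square root of F. The replicates were distinct libraries (chi-square of counts over degrees of freedom, 8.76 for DMSO and 11.8 for SGSS05-NS). On simulated counts for SGSS05-NS against DMSO over 16468 genes, the test recovered 62.0% of genes changed 2-fold and called 0 unchanged genes. These counts were drawn with the dispersion trend of the same fit, without differences in spread between genes of like level and without replicate effects. The number of false calls in the real libraries is therefore not known from them. The 10 genes and the gene lists were chosen with earlier results of these data known. Named are the 10 genes, the other pathway genes that were called or had the 3 smallest p-values of their role, and the 3 genes most like MAML3 and HES1. HES5, HEYL, HES7, HES2, HES3, HEY2, NUMB, DLL1, DLK1, MFNG and MAMLD1 were added after their values were seen.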

Additional observations from a re-analysis of the deposited data

Results flagged for a closer look

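Fragments on the opposite strand of MAML1, a count outside the comparison, numbered 10 in the SGSS05-NS libraries together and 2 in the DMSO libraries together. Each treated library was above each control library, and the exact binomial 95% interval left out equal levels. It is the 1 gene of the 10 for which this was so, no adjustment was made for looking at 10 genes, and the numbers are small.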

How the results depend on the processing

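The directions of MAML1, MAML2, MAML3, NOTCH1, NOTCH2, JAG1, DLL3, HES1 and HEY1 were the same under every alternative in which they were tested. MAML2, with 6 fragments in SGSS05-NS replicate 2, was not tested under the filter of at least 10 counts in every library. The log2 fold change of MAML3 stayed between -2.24 and -1.97 and that of NOTCH1 between 3.10 and 3.66 with single libraries left out. That of MAML2 ranged from -2.21 to -0.92 and that of NOTCH4 from -0.057 to 0.30. With 1 library left out, its condition has 1 library, which is assumed to vary like the others. Over all genes, 1049 higher and 1341 lower calls became 2022 and 2267 with the likelihood ratio test, 2034 and 2570 without a filter on low counts, and 3728 and 3903 at an adjusted p under 0.05. Among the 10 genes, 2 higher and 1 lower calls became between 1 and 3 higher and between 1 and 2 lower with single libraries left out, 5 and 4 at an adjusted p under 0.05, and there were 2 lower calls with the likelihood ratio test or DESeq2 and 3 without a filter. Among the other pathway genes, the 2 lower calls became 5 with the likelihood ratio test, 4 with DESeq2, 1 with scaling by library size only, 7 without a filter and between 1 and 8 with single libraries left out, and at an adjusted p under 0.05 there were 17 higher and 13 lower. The median log2 fold change moved beyond the spread between pairs of libraries in these cases: under 10 kb, 0.13 with library size scaling, 0.19 without a filter, 0.13 without regard to strand and from 0.061 to 0.13 with single libraries left out; at 10 to 50 kb, 0.17 with library size scaling and 0.20 without a filter; at 50 to 150 kb, -0.060 with library size scaling, -0.056 without a filter and from -0.12 to -0.082 with single libraries left out; at 150 to 300 kb, -0.44 with each. The cause was not tested.

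The labels number the replicates, but with 2 pairs the numbers are not shown to pair the samples: over genes tested, the deviations of same-numbered libraries correlated at 0.0455. With the replicate block, there were 1759 higher and 2007 lower calls over all genes, 3 higher and 2 lower among the 10 genes, and 9 higher and 5 lower among the other pathway genes.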
